A study of Mus musculus with 17 samples.

Results

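The genes described here are the core transcription factors and the hormone receptor of the red cell lineage: *Gata1*, *Tal1*, *Nfe2*, *Gfi1b*, *Zfpm1*, *Lmo2*, *Ldb1*, *Epor* and *Hemgn*. They were chosen by name, through the gene annotated to each probe set of the array, and each of the 9 was measured by 1 probe set, out of 22180 genes named on the array. Whole mouse embryos were taken at E12.5 (E, embryonic day) and their RNA was hybridized to 17 Affymetrix 2.0 ST arrays, in a study of mutations in *Klf3*, which encodes a zinc finger repressor of the Krüppel-like factor family that binds CACCC elements. There were 3 embryos of genotype Klf3 H275R/H275R (H275R homozygotes), 4 of Klf3 H275R/+ (H275R heterozygotes), 4 Klf3 CH homozygotes, 2 Klf3 CH heterozygotes and 4 of Klf3+/+ (WT). H275R is a chemically induced point mutation in the DNA-binding domain, so the altered protein is still made, and the CH line, which is 1 gene trap line, carries an insertion in intron 1 of *Klf3*. The lines have different breeding histories, no WT array is assigned to either line in the labels, and embryos were matched by litter only where possible, so line and mutation cannot be told apart in any comparison across the lines. No other allele, Cre or treatment is given for any group, and the sources used here do not give sex, litter or the stage of single embryos.

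Red cells at this stage are made mainly in the fetal liver, while large primitive red cells from the yolk sac still fill the circulation. GATA1 and TAL1 bind DNA side by side in a complex that LMO2 and LDB1 hold together, and LDB1 joins distant enhancers to promoters. ZFPM1 (FOG1) is the cofactor of GATA1, GFI1B is a repressor, NFE2 activates globin genes together with small Maf proteins, EPOR is the erythropoietin receptor that keeps late progenitors alive, and HEMGN (hemogen) is a nuclear protein of blood-forming cells. KLF3 and KLF1, the erythroid activator of the same family, recognise the same CACCC letters, which is why the sequence upstream of these genes is shown first.

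In RefSeq (GRCm38.p6), 250 bases before an annotated start were at hand for 7 of the 9 genes, in 10 windows, since *Tal1* has 2 starts and *Ldb1* has 3. *Nfe2* and *Lmo2* had no window. The windows of the gene with the largest difference below (*Hemgn*), of the receptor, of *Gata1* and of *Ldb1*, the gene that differed least (the window of its 3 with the most marked matches), are printed 5′ to 3′ along the gene's strand, all on the minus strand. Capitals mark CACCC (or GGGTG on the other strand) and the GATA letters AGATAA or TGATAA (or TTATCT or TTATCA).
*Hemgn*, chr4:46404184-46404433: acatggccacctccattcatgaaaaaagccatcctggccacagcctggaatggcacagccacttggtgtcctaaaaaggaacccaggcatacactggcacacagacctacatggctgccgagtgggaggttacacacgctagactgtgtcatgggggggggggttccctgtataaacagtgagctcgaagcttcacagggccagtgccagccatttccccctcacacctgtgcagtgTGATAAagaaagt
*Epor*, chr9:21963577-21963826: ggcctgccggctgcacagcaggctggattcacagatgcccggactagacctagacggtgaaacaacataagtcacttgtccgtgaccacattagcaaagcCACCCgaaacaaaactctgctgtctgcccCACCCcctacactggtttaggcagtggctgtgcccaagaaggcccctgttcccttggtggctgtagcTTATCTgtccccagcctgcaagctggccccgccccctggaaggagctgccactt
*Gata1*, chrX:7967911-7968160: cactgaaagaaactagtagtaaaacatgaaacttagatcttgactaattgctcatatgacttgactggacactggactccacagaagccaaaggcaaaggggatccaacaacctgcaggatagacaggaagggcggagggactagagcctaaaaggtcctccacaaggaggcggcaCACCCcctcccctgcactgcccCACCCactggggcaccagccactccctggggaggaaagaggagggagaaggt
*Ldb1*, chr19:46037071-46037320: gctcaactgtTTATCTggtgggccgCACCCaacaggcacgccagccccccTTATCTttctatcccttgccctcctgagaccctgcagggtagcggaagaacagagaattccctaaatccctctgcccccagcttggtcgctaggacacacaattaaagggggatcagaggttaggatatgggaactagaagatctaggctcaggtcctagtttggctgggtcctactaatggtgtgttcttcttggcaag
CACCC was found in 8 of the 10 windows, from 6 genes, against 52% of 32851 windows of the same length in the mouse table. AGATAA or TGATAA was found in 5 of the 10 windows, each from a different gene, against 16.6%, and CANNTG, the letters bound by TAL1 with its partners, in 5 of 10 against 66.2%. All motifs were searched on both strands. The marked matches do not overlap each other, and CANNTG, which is not marked, was counted whether or not it overlapped them. The *Hemgn* window held 1 GATA match, 13 to 8 bases before the start, and no CACCC. The *Epor* window held CACCC 2 times and a GATA match 54 to 49 bases before the start, and the *Gata1* window held CACCC 2 times within 74 bases of the start. These are matches of letters and no evidence of binding.

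The arrays were comparable as a set: their median log2 values lay between 6.68 and 6.78, and any pair of arrays correlated at 0.981 to 0.994 over all 39137 probe sets. *Klf3* itself followed the labels, with log2 values of 5.27, 5.62, 5.73 and 6.13 in CH homozygotes, 9.09 and 9.64 in CH heterozygotes and 9.48 to 9.80 in WT. In H275R homozygotes it was 9.33, 9.38 and 9.65, since the point mutation leaves the transcript in place. CH homozygotes 2 and 4 and CH heterozygote 2 stood apart from the rest: the mean of 15 cartilage genes was 8.52 to 8.77 in these 3 arrays, against 7.61 to 8.16 in the other 14 (7.61 to 7.71 in the other 3 CH arrays and WT 4), and the mean of 3 embryonic globin genes was 8.72, 8.85 and 9.43 there. The medians of the 9 genes in comparisons that use CH arrays are therefore also given without these 3. *Kdm5d*, on the Y chromosome, was at 9.52 to 9.70 in 4 arrays (H275R homozygote 1, CH homozygote 3, CH heterozygote 1 and WT 2) and at 3.79 to 4.46 in the other 13. All values below are on the log2 scale, where a difference of 1 is a change by a factor of 2, and levels are not compared between genes because each probe set has its own affinity.

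H275R homozygotes had the lowest mean of the 5 genotypes for 8 of the 9 genes, every one but *Ldb1*, and none of these differences from WT passed the test. Against WT, the median difference of the 9 genes was -0.40, with 8 of 9 below 0, while the median over all probe sets was -0.0094 with 53.5% below 0. In limma, 0 of 9 passed at an adjusted p under 0.1, a level that 0.0128% of all probe sets reached, and the adjusted p-values of the 9 lay between 0.902 and 0.999. The methods' t-test, run on the same values and adjusted by Benjamini-Hochberg, also passed 0 of 9 in this and in the other 6 pairwise comparisons. At an unadjusted p under 0.05 there were 5 of 9 (*Hemgn*, *Nfe2*, *Tal1*, *Lmo2* and *Epor*), against 5.06% of all probe sets, and in 5 of 9 (*Tal1*, *Nfe2*, *Gfi1b*, *Lmo2* and *Hemgn*) all 3 homozygotes lay below all 4 WT embryos, against 3.16% of all probe sets. The genes varied together from array to array, as shown further on, so these are not independent counts. WT 3 and 4 lay above WT 1 and 2 for every gene but *Lmo2*, so the sizes depend on which WT embryos are included. Those embryos were left out singly and not together. The genes and lists were chosen with earlier results of these data known. Shares of all probe sets are therefore not an unbiased contrast, here or below.

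**Figure D1:**
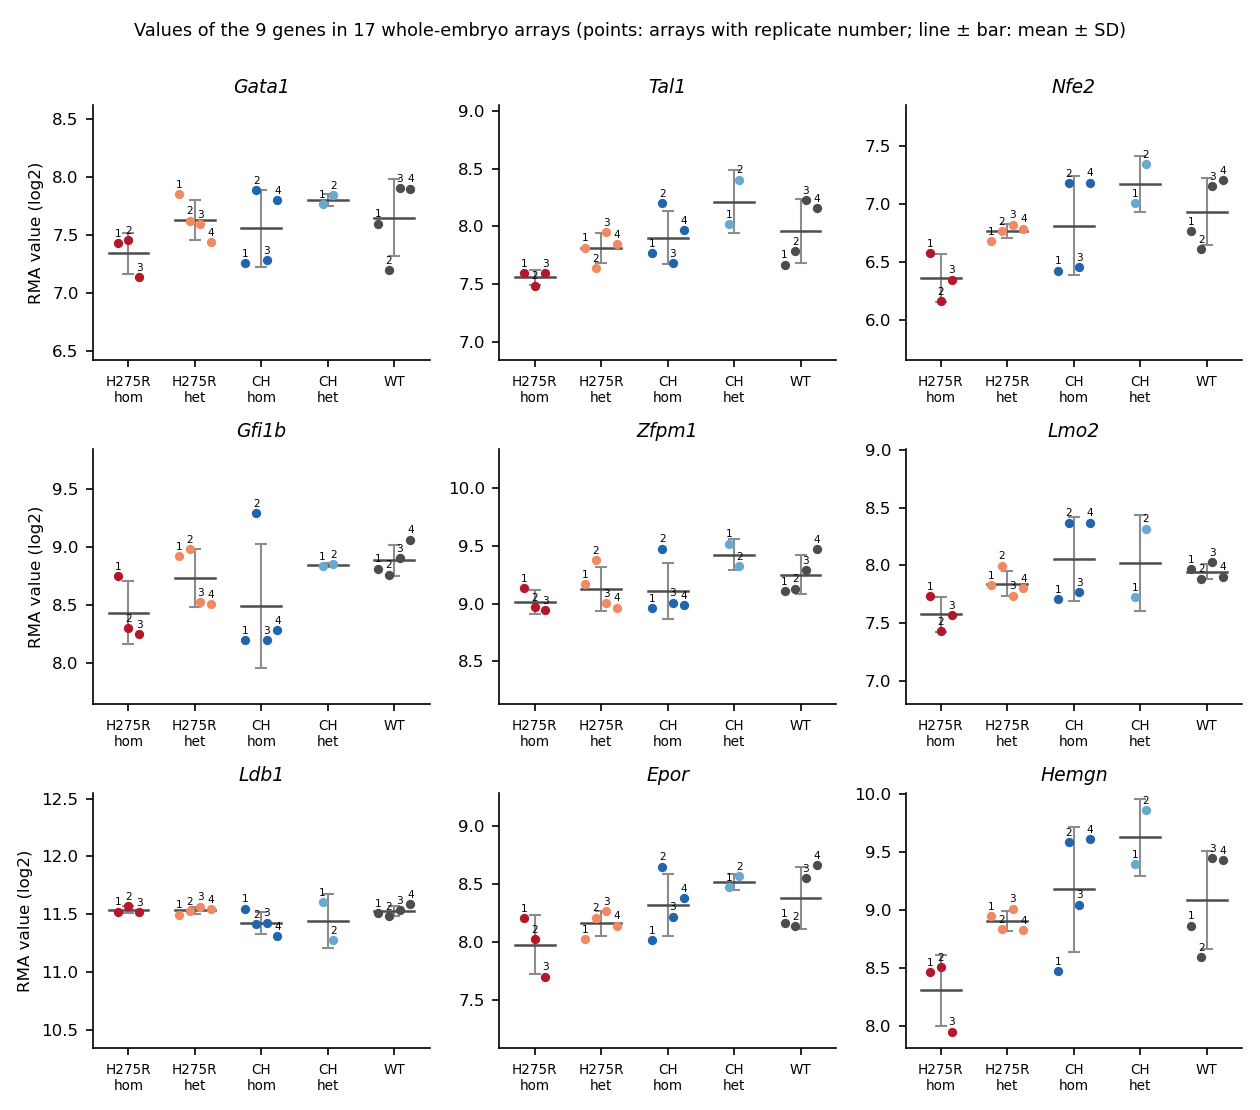
Log2 RMA value (y axis) of each of the 9 genes in the 17 arrays, by genotype (x axis). Points are single embryos with their replicate number, lines are group means and bars are SDs, and every panel spans the same number of log2 units. H275R homozygotes have the lowest mean in every panel but that of *Ldb1*, and CH homozygotes fall into a high and a low pair for *Nfe2* and *Lmo2*.

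The nuclear protein gene *Hemgn* showed the largest difference. Its log2 values were 8.46, 8.50 and 7.95 in H275R homozygotes, 8.95, 8.83, 9.01 and 8.83 in H275R heterozygotes, and 8.86, 8.59, 9.44 and 9.43 in WT. The homozygotes lay below every heterozygote and every WT embryo, although homozygote 2 and WT 2 were only narrowly apart. The difference from WT was -0.78 ± 0.26 (SE), or 0.583 times the WT level, with a 95% interval of -1.34 to -0.21 and an adjusted p of 0.902 in limma. Its group means were 8.30 ± 0.31 (SD, n = 3) in H275R homozygotes, 8.90 ± 0.089 (n = 4) in H275R heterozygotes, 9.18 ± 0.54 (n = 4) in CH homozygotes, 9.62 ± 0.33 (n = 2) in CH heterozygotes and 9.08 ± 0.42 (n = 4) in WT, and when these means are put in order only the H275R homozygotes and heterozygotes were neighbours without overlap. Over all 17 arrays *Hemgn* spanned 1.91 log2 units, the widest range of the 9 genes, with its highest value of 9.86 in CH heterozygote 2.

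The activator *Nfe2*, whose product pairs with small Maf proteins, came next. It was at 6.58, 6.16 and 6.35 in H275R homozygotes, 6.68, 6.76, 6.82 and 6.79 in H275R heterozygotes, and 6.77, 6.61, 7.16 and 7.21 in WT. Again the 3 homozygotes were the lowest of these 11 embryos, with a gap of less than the SD of either group between homozygote 1 and WT 2. The means were 6.36 ± 0.21 (SD, n = 3) in H275R homozygotes, 6.77 ± 0.059 (n = 4) in H275R heterozygotes and 6.94 ± 0.29 (n = 4) in WT. The difference from WT was -0.57 ± 0.20 (SE), with a 95% interval of -1.0 to -0.15 and an adjusted p of 0.912 in limma.

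Of the DNA-binding complex, *Tal1* and *Lmo2* had the same pattern and *Gata1* had a smaller difference. *Tal1* was at 7.60, 7.49 and 7.60 in H275R homozygotes, 7.82, 7.64, 7.95 and 7.85 in H275R heterozygotes and 7.67, 7.79, 8.23 and 8.16 in WT. *Lmo2*, which bridges TAL1 and LDB1 without binding DNA, was at 7.73, 7.44 and 7.57 in homozygotes, 7.83, 8.0, 7.74 and 7.81 in heterozygotes and 7.97, 7.89, 8.03 and 7.90 in WT. For both genes the homozygotes lay below all embryos of the other groups of the H275R comparison, and the differences from WT were -0.40 (95% interval -0.71 to -0.09) for *Tal1* and -0.37 (-0.69 to -0.05) for *Lmo2*. *Gata1* was at 7.43, 7.45 and 7.14 in homozygotes, 7.85, 7.62, 7.59 and 7.44 in heterozygotes and 7.60, 7.19, 7.90 and 7.90 in WT. WT 2 lay among the homozygotes for *Gata1*, and the interval of its difference, -0.72 to 0.10, took in 0.

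*Ldb1*, the scaffold of the complex, which is expressed in most tissues, did not follow the others. Its values were 11.52, 11.57 and 11.52 in H275R homozygotes, 11.50, 11.53, 11.57 and 11.55 in H275R heterozygotes and 11.51, 11.48, 11.54 and 11.59 in WT. The groups overlapped fully, and the difference of 0.01 had a 95% interval of -0.13 to 0.15, the narrowest of the 9 genes.

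Of the remaining regulators, *Gfi1b* was at 8.75, 8.31 and 8.25 in H275R homozygotes, 8.92, 8.98, 8.52 and 8.51 in H275R heterozygotes and 8.82, 8.76, 8.90 and 9.07 in WT. The homozygotes lay below WT, with homozygote 1 just under WT 2, and overlapped with the heterozygotes. *Zfpm1* was at 9.14, 8.97 and 8.94 in homozygotes, 9.17, 9.38, 9.0 and 8.96 in heterozygotes and 9.11, 9.13, 9.29 and 9.47 in WT, so that homozygote 1 lay above 2 of the WT embryos. The differences from WT were -0.45 (95% interval -0.95 to 0.05) for *Gfi1b* and -0.23 (-0.53 to 0.06) for *Zfpm1*, both taking in 0.

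The receptor gene *Epor* was at 8.21, 8.03 and 7.70 in H275R homozygotes, 8.02, 8.21, 8.27 and 8.14 in H275R heterozygotes and 8.16, 8.13, 8.55 and 8.66 in WT. Homozygotes and WT overlapped, and homozygote 3 was the lowest of all 17 arrays. The difference from WT was -0.40 ± 0.16 (SE), with a 95% interval of -0.75 to -0.05 and an adjusted p of 0.963 in limma, and it was -0.26 without homozygote 3. In whole embryos fewer red cells and less RNA per red cell cannot be told apart, for *Epor* or for any other gene here.

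**Figure D2:**
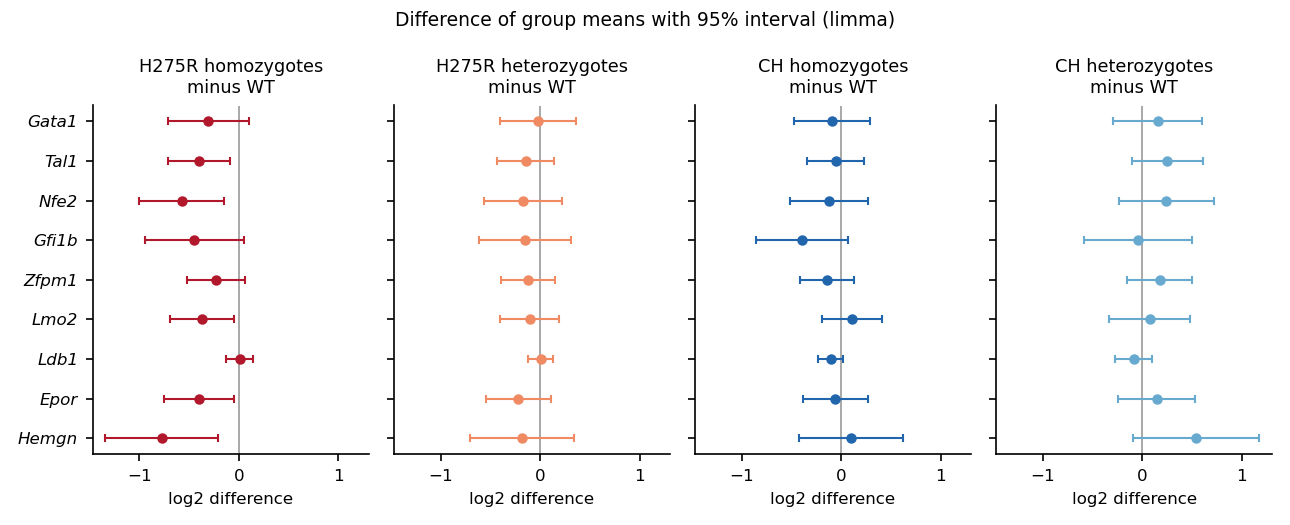
Difference of the group mean from WT (x axis, log2) for each of the 9 genes (y axis), in 4 panels by genotype, with the 95% interval of limma's fit as bars. In H275R homozygotes 8 of 9 points lie below 0 and 5 intervals leave 0 out. In the other 3 panels every interval takes in 0.

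By their means, H275R heterozygotes lay between H275R homozygotes and WT for all 9 genes, although the 3 means of *Ldb1* were within 0.01 of each other. Against WT, their median difference was -0.15, with 8 of 9 below 0, values between -0.22 (*Epor*) and 0.01 (*Ldb1*), and 0 of 9 passing in limma, where 0% of all probe sets passed. Without WT 3 that median was -0.076. No member had an unadjusted p under 0.05 in that comparison with all arrays, against 3.87% of all probe sets. H275R homozygotes against H275R heterozygotes gave a median of -0.27, with 8 of 9 below 0 and again 0 of 9 passing (0% of all probe sets). There, 1 of 9 genes (*Hemgn*, -0.60, unadjusted p = 0.0394 and adjusted p = 0.9999 in limma) had an unadjusted p under 0.05, against 3.18% of all probe sets, and 4 of 9 (*Tal1*, *Nfe2*, *Lmo2* and *Hemgn*) had every homozygote below every heterozygote, against 2.5% of all. In the order of the 5 genotype means, these 4 steps between the lowest and the next group were the only neighbouring groups whose arrays did not overlap. The comparisons with WT and with heterozygotes share the 3 homozygotes and are not independent of each other.

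CH homozygotes, with all 4 embryos, lay nearer to WT by their median. The median difference from WT was -0.09, with 7 of 9 below 0 and values between -0.39 (*Gfi1b*, adjusted p = 0.627 in limma) and 0.11 (*Lmo2*, adjusted p = 0.864), while 0 of 9 passed (0.0588% of all probe sets) and 0 had an unadjusted p under 0.05 (8.95% of all probe sets). The group was split. *Hemgn* was at 8.47, 9.59, 9.04 and 9.61 in CH homozygotes 1 to 4, *Nfe2* at 6.43, 7.18, 6.46 and 7.19, and *Lmo2* at 7.71, 8.37, 7.77 and 8.37. Embryos 2 and 4 were high and embryos 1 and 3 low in each of these genes, and *Gata1* followed the same split (7.25, 7.88, 7.28 and 7.80). *Tal1* (7.77, 8.20, 7.69 and 7.97) and *Epor* (8.02, 8.65, 8.22 and 8.38) had the same order with smaller gaps. *Gfi1b* (8.20, 9.29, 8.20 and 8.28) and *Zfpm1* (8.96, 9.47, 9.01 and 8.99) were high in embryo 2 and not in embryo 4, whereas *Ldb1* was at 11.55, 11.41, 11.43 and 11.31, lowest in embryo 4. Embryos 2 and 4 were those with the high cartilage mean. A split was not particular to this genotype. WT 3 and 4 lay above WT 1 and 2 for every gene but *Lmo2*, as for *Hemgn* (9.44 and 9.43 against 8.86 and 8.59). The SD of *Tal1* was 0.27 in WT and 0.23 in CH homozygotes, and that of *Epor* was 0.27 in both.

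Without CH homozygotes 2 and 4 and CH heterozygote 2, the median difference of CH homozygotes from WT was -0.26, with 9 of 9 below 0, and 0 of 9 passed in limma (lowest adjusted p 0.226). *Hemgn* was then at -0.33 and *Lmo2* at -0.21, against 0.09 and 0.11 with all arrays, and *Gfi1b* was at -0.69 against -0.39. With the cartilage mean as a covariate, *Hemgn* was at -0.022 and *Lmo2* at -0.023, and 0 of 9 passed. The sizes for CH homozygotes thus depended on which embryos were included.

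CH heterozygotes were the highest group for 6 of the 9 genes, with 2 embryos. *Hemgn* was at 9.39 and 9.86, *Tal1* at 8.02 and 8.40, *Nfe2* at 7.01 and 7.35, *Epor* at 8.47 and 8.57, *Gata1* at 7.77 and 7.84 and *Zfpm1* at 9.52 and 9.33. *Gfi1b* was at 8.84 and 8.86, *Lmo2* at 7.73 and 8.32 and *Ldb1* at 11.61 and 11.28, so that the 2 embryos lay apart for *Lmo2* and *Ldb1*. Against WT, 0 of 9 passed in limma (0.00511% of all probe sets) or had an unadjusted p under 0.05 (5.94%). The median difference from WT was 0.15, with 2 of 9 below 0. It was 0.063 without WT 2, 0.24 without WT 4 and 0.079 without the 3 CH arrays that stood apart. CH homozygotes against CH heterozygotes gave a median of -0.31, with 8 of 9 below 0. There, 0 of 9 passed (0.00511% of all probe sets) or had an unadjusted p under 0.05 (5.44%). The same step from heterozygote to homozygote was -0.27 in the H275R line. The difference between the lines in this step had a median of -0.02, with 5 of 9 below 0. Again 0 of 9 passed (0.00511% of all probe sets) or had an unadjusted p under 0.05 (3.06%). For *Hemgn* that difference was 0.15, with a 95% interval of -0.70 to 0.997, which takes in values well to both sides of 0. Without the 3 CH arrays, which left 1 CH heterozygote whose spread was taken to be that of the other groups, the step within the CH line had a median of -0.50 and the difference between the lines one of -0.16, with 8 of 9 below 0 and 0 of 9 passing.

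The mutant homozygotes were also compared with each other. CH homozygotes were above H275R homozygotes for 8 of 9 genes, with a median of 0.34, and 0 of 9 passed in limma, where 0.164% of all probe sets did. The largest differences were those of *Hemgn* (0.87 ± 0.26, SE; adjusted p = 0.222) and *Lmo2* (0.48 ± 0.15; adjusted p = 0.241), and with *Nfe2* and *Tal1* these were the 4 of 9 genes with an unadjusted p under 0.05, against 12.6% of all probe sets. *Tal1* was the 1 gene of 9 whose 4 CH homozygotes all lay above the 3 H275R homozygotes, against 5.7% of all probe sets. Leaving out CH homozygote 1 took *Hemgn* to 1.11 (adjusted p = 0.0640 in limma) and *Lmo2* to 0.59 (adjusted p = 0.0903), past the threshold. The share of all probe sets that passed without that embryo was not counted. Leaving out H275R homozygote 3 took the median to 0.20. Without the 3 CH arrays that stood apart, the median was 0.08, with 4 of 9 below 0, and *Hemgn* was at 0.45 (adjusted p = 0.490).

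The 9 genes were set beside further factors and cofactors of red cells, 21 genes that were all measured. In H275R homozygotes against WT these had a median of -0.02, with 11 of 21 below 0 and 0 passing in limma, so that the list's median lay near that of all probe sets. At an unadjusted p under 0.05 there were 6 of 21, against 5.06% of all probe sets. The list held 5 genes with all homozygotes below all WT embryos, against 3.16% of all probe sets. It also held 2 with all homozygotes above, a direction for which the share of all probe sets was not counted. Its lowest members were *Trim10*, an erythroid RING finger protein (-0.97, adjusted p = 0.832), *Klf1* (-0.66, adjusted p = 0.974), *Ikzf1*, which encodes Ikaros (-0.46, adjusted p = 0.908), and *Lyl1*, a relative of *Tal1* (-0.33, adjusted p = 0.963). *Gata2*, the GATA factor of earlier progenitors that GATA1 displaces, lay on the other side, averaging 9.11 in H275R homozygotes and 8.90 in WT (0.22, adjusted p = 0.963), with no overlap between the arrays. In CH homozygotes against WT the list had a median of -0.08, with 14 of 21 below 0 and 0 passing, and *Gata2* was at -0.23 (adjusted p = 0.409). *Gata2* was the 1 gene of the 21 that passed between the homozygotes: it averaged 8.66 in CH homozygotes and 9.11 in H275R homozygotes, a difference of -0.45 ± 0.09 (SE, adjusted p = 0.0788 in limma), without overlap, in a comparison where 0.164% of all probe sets passed. Without the 3 CH arrays that stood apart it did not pass (-0.36, adjusted p = 0.129). In that setting *Runx1*, another gene of the list, passed (-0.66, adjusted p = 0.0878 in limma). The share of all probe sets that passed there was not counted, so that pass has no background beside it. With all arrays *Runx1* was at -0.36 (adjusted p = 0.376).

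Around the receptor, 16 of 17 listed genes of erythropoietin and related signalling, ligands included, were measured. In H275R homozygotes against WT their median was -0.04, with 12 of 16 below 0 and 0 passing. The transferrin receptor gene *Tfrc* was at -0.31, the kinase gene *Jak2* at -0.19, *Kit* at 0.18 and the ligand gene *Epo* at 0.13, all with an adjusted p over the threshold. In CH homozygotes against WT the median was -0.02, with 8 of 16 below 0 and 0 passing. At an unadjusted p under 0.05 there were 4 of 16, against 8.95% of all probe sets. The targets *Pim1* and *Cish* were at -0.41 and -0.36, and at -0.52 and -0.50 without CH homozygotes 2 and 4. *Kitl* and *Tfrc* were at 0.40 and 0.39, and at 0.14 and 0.093 without those embryos. The median of these signalling genes lay near that of all probe sets in both homozygotes. It was measured in whole embryos, so signalling in red cells cannot be read from it. Single genes such as *Pim1* lay further away in CH homozygotes.

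The structural genes of the red cell, which encode its membrane, heme and iron proteins, lay lower as a list than the regulators. In H275R homozygotes against WT, 16 of 16 measured genes (of 22 listed) lay below 0, with a median of -0.68, and 14 of 16 had no overlap between the arrays, against 3.16% of all probe sets. The list was chosen with earlier results of these data known, so that share is not an unbiased contrast. Its genes share arrays and are not independent counts. *Xk* passed (-0.77, adjusted p = 0.0756 in limma), and *Kel*, a blood group protein gene like *Xk*, had the largest difference (-1.23, adjusted p = 0.149). In CH homozygotes against WT the median was -0.18, with 14 of 16 below 0 and 0 passing, and *Xk* was at -0.47 (adjusted p = 0.165). Without CH homozygotes 2 and 4 that median was -0.56, with 16 of 16 below 0 and 0 passing. Markers of fetal hepatocytes lay lower in the same embryos: the mean of 9 such genes was 8.99 to 9.36 in H275R homozygotes, 9.31 to 9.65 in H275R heterozygotes, 9.02 to 10.3 in CH homozygotes, 8.74 to 10.4 in CH heterozygotes and 9.18 to 9.75 in WT, and 7 of 9 lay below 0 in H275R homozygotes against WT, with a median of -0.49 and 0 passing. Endothelial markers had a median of 0.14 (9 of 10 above 0) and embryonic globins of -0.25 (3 of 3 below 0) in the same comparison. RMA values have no zero, so the absence of a cell type cannot be read from them, and the part of these cell types in the results was not tested.

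**Figure D3:**
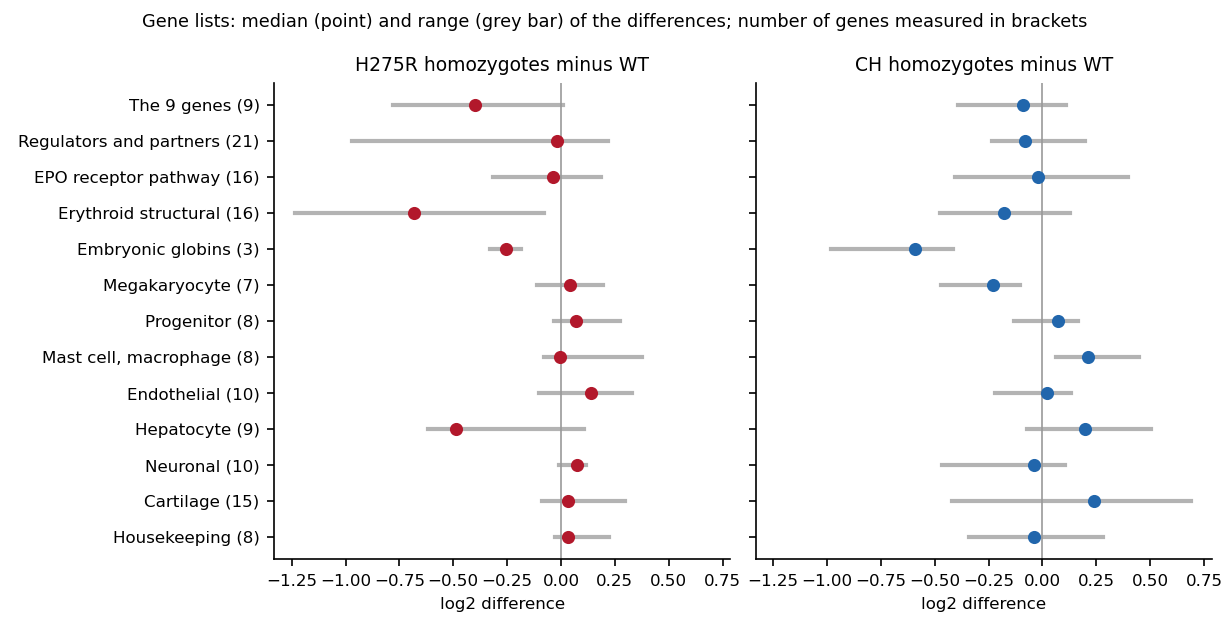
Median (points) and range (grey bars) of the log2 differences from WT (x axis) of 13 gene lists (y axis, number of genes measured in brackets), in H275R homozygotes and in CH homozygotes. In H275R homozygotes the erythroid structural list, the hepatocyte list and the 9 genes have medians of -0.68, -0.49 and -0.40. In CH homozygotes the embryonic globins have the lowest median, -0.59, which was -0.24 without CH homozygotes 2 and 4.

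Across the 17 arrays the 9 genes fell into a set of 8 that varied together and *Ldb1*, which did not. The 28 pairs among the 8 correlated with Pearson's r between 0.44 and 0.90 (median 0.71), and between 0.35 and 0.90 (median 0.64) once genotype means had been taken out, so embryos of one genotype also varied together in these genes. The strongest pairs were *Tal1* with *Nfe2*, *Epor* with *Hemgn* and *Nfe2* with *Hemgn*, each at 0.90. After genotype means were taken out, the strongest was *Gfi1b* with *Zfpm1*, at 0.90. *Ldb1* correlated with the other 8 at -0.75 (*Lmo2*) to 0.03, with a median of -0.32. By Spearman's rank correlation *Ldb1* was at -0.59 with *Lmo2*, -0.32 with *Hemgn* and between -0.16 and -0.015 with the rest. These correlations share arrays, genotype and stage and are given as descriptions over 17 embryos, with the 3 CH arrays that stood apart included.

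**Figure D4:**
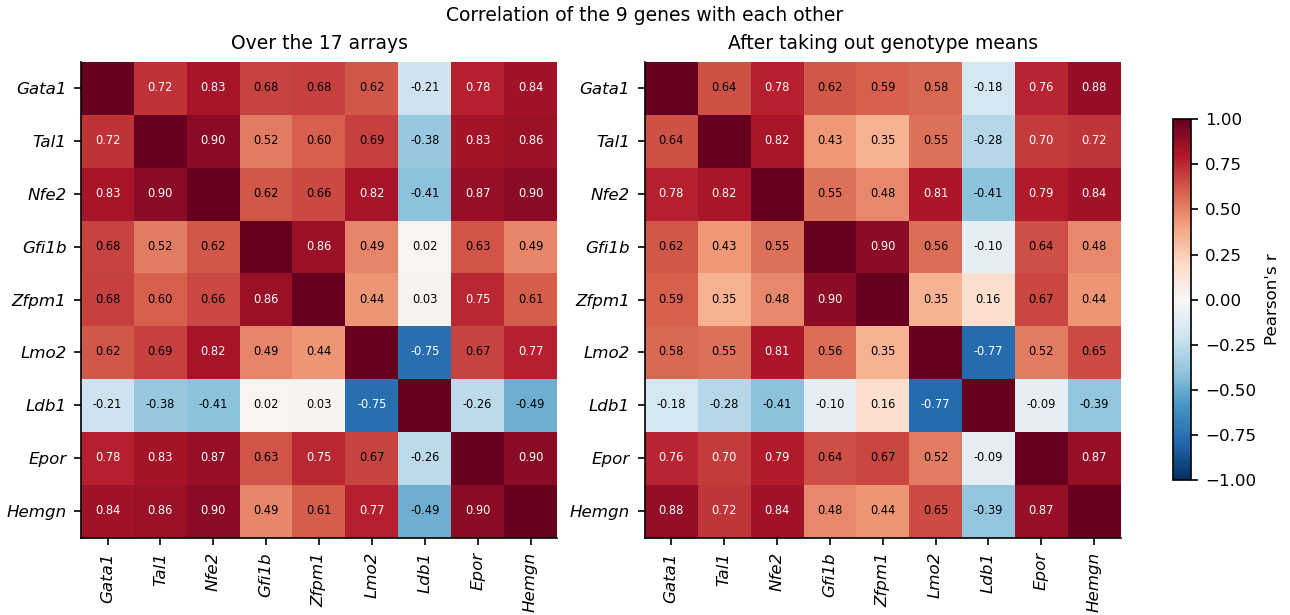
Pearson's r between each pair of the 9 genes over the 17 arrays (left) and after the mean of each genotype was taken out (right), from -1 (blue) to 1 (red). The row of *Ldb1* is the only one with mostly negative values.

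The genes most like each member fell along the same lines. For *Hemgn* they were *Car2* (r = 0.97), *Klf1* (0.95) and *Rhd* (0.94), for *Epor* the mitochondrial iron carrier gene *Slc25a37* (0.93), *Tspan33* (0.93) and *Ermap* (0.91), and for *Tal1* *Tspan32* (0.90), *Slc41a3* (0.88) and *Klf1* (0.88). *Nfe2* was most like *Ube2l6* (0.94), *6030468B19Rik* (0.94) and *Creg1* (0.92), *Gata1* like *Kcnn4* (0.84), *Slc38a5* (0.84) and *Car2* (0.83), *Gfi1b* like *Pklr* (0.83), *Kcnn4* (0.82) and *Nup210* (0.82), and *Zfpm1* like *Mfsd2b* (0.92), *Olfr922* (0.86) and *Hipk1* (0.83). *Lmo2* differed: it was most like *Apoa2*, an apolipoprotein of the liver (0.98), *Bhmt2* (0.96) and *Tnfrsf14* (0.96). *Ldb1* was most like *Pom121* (0.98), *Bcl9* (0.96) and *Rnf44* (0.96).

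Set against the lists, the mean of the structural genes followed *Nfe2* (r = 0.93), *Hemgn* (0.92) and *Epor* (0.90) most closely and *Gfi1b* and *Zfpm1* least among the 8 (0.66 each). *Lmo2* correlated at 0.92 with the hepatocyte mean and at 0.75 with the cartilage mean, and *Ldb1* at -0.80 and -0.74. By Spearman's rank correlation these were 0.89 and 0.62 for *Lmo2* and -0.66 and -0.75 for *Ldb1*. The 3 CH arrays that stood apart are included in these values. *Gfi1b* was the member closest to the megakaryocyte mean, at 0.62. The mean of the 8 genes without *Ldb1* ran between 7.69 (H275R homozygote 3) and 8.58 (CH homozygote 2), with H275R homozygotes at 7.69 to 7.99, H275R heterozygotes at 8.04 to 8.18, CH homozygotes at 7.85 to 8.58, CH heterozygotes at 8.34 and 8.56 and WT at 8.01 to 8.47. By this mean the H275R homozygotes lay below all WT embryos and all heterozygotes of either line, and CH homozygotes 1 and 3, at 7.85 and 7.96, lay within the range of the H275R homozygotes.

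**Figure D5:**
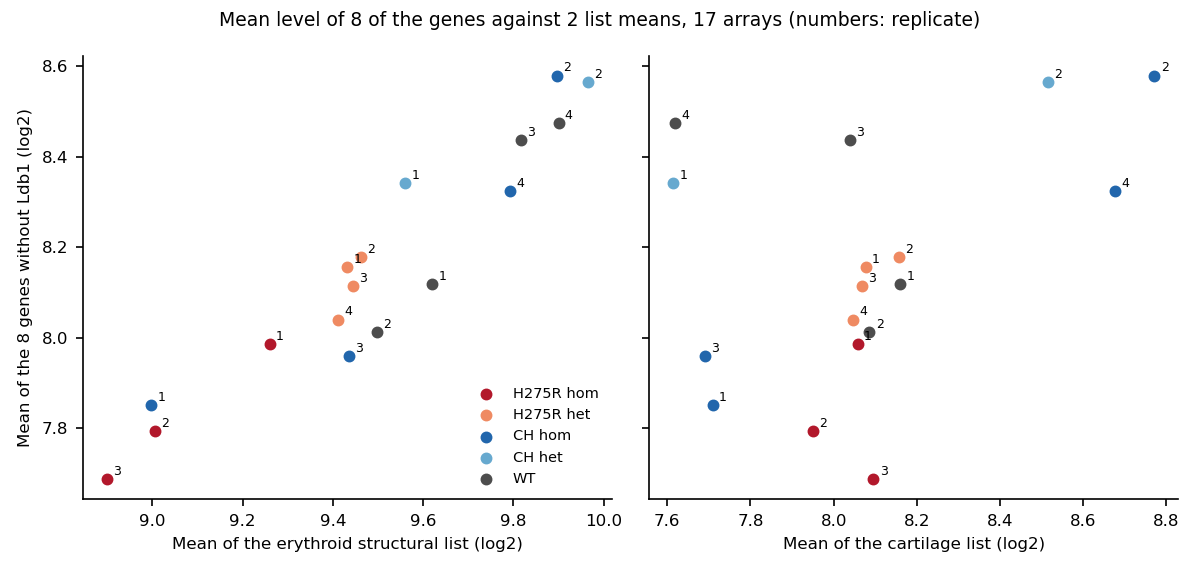
Mean log2 value of the 8 genes without *Ldb1* (y axis) against the mean of the erythroid structural list (left) and of the cartilage list (right), for the 17 arrays by genotype, with replicate numbers. The points rise together on the left. On the right the 3 CH arrays with a cartilage mean of 8.52 to 8.77 stand apart, all with a mean of the 8 genes over 8.3. WT 3, WT 4 and CH heterozygote 1 are also over 8.3, with cartilage means of 8.04, 7.62 and 7.61.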

How the data were processed

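RNA of 17 whole E12.5 embryos was labelled with biotin and hybridized to Affymetrix 2.0 ST arrays, and the authors normalized the arrays by RMA, with Partek Genomic Suite 6.6 named for the analysis. The values deposited are log2 RMA values, 1 per probe set and array, with no detection call, so no probe set could be called absent. The number of arrays limits the precision. Of 39137 probe sets, 23521 carried 1 gene symbol, 1820 several and 13796 were not in the annotation used here.

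All probe sets were fitted with limma 3.58.1 (R 4.3.3), with 1 mean per genotype and Benjamini-Hochberg adjustment over all probe sets; a gene passed at an adjusted p under 0.1, the false discovery rate of the study. Comparisons among H275R homozygotes, H275R heterozygotes, CH homozygotes and WT used their 15 arrays, and those with CH heterozygotes used all 17. The fit was tested on simulated data. Embryos were taken as replicates, and p-values measure only the spread between these embryos. Named genes were the 9 genes, the members of each list that passed or had the largest differences, and the 3 genes most correlated with each of the 9. The genes and lists were chosen with earlier results of these data known. Alternatives were the methods' t-test, other sets of arrays, other normalizations and covariates, and single arrays left out.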

Additional observations from a re-analysis of the deposited data

Results flagged for a closer look

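*Gfi1b* was at 9.29 in CH homozygote 2, and the nearest of the other 3 CH homozygotes was at 8.28. *Zfpm1* was at 9.47 in the same embryo, with the nearest at 9.01. In both genes this embryo stood apart from the other embryos of its genotype by most of the group's range. Of 27 gene and genotype combinations with 4 arrays, these 2 stood out, and chance gives about 1 in 20, so 2 of 27 is near that share. The 2 are not independent, since *Gfi1b* and *Zfpm1* correlated at 0.90 after genotype means were taken out. Without this embryo, *Gfi1b* in CH homozygotes against WT was at -0.66, against -0.39 with it.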

How the results depend on the processing

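With 241 other settings, 3 of 2169 recomputed differences of the 9 genes had an adjusted p under 0.1 in limma and 95 changed sign. All 3 were in CH homozygotes against H275R homozygotes: *Lmo2* with the cartilage mean as a covariate (1 gene passing; 0.38, adjusted p = 0.0745), and *Hemgn* and *Lmo2* without CH homozygote 1, so that 0 to 2 genes passed when single arrays were left out. Without CH homozygotes 2 and 4 and CH heterozygote 2, the median of that comparison was 0.081. The share of all probe sets that passed with the covariate, or without CH homozygote 1, was not counted. In CH homozygotes against WT, *Lmo2* and *Hemgn* turned to -0.023 and -0.022 with the cartilage covariate and to -0.21 and -0.33 without those 3 arrays. These settings and *Kdm5d* as a covariate (median -0.39 for H275R homozygotes against WT) were chosen after seeing the data.

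Leaving out single arrays gave -0.0083 to 0.028 for *Ldb1* in H275R homozygotes against WT, and in CH homozygotes against WT -0.24 to 0.0075 for *Gata1*, -0.15 to 0.032 for *Tal1*, -0.25 to 0.0053 for *Nfe2*, -0.17 to 0.040 for *Epor* and -0.068 to 0.33 for *Hemgn*. The median of the 9 genes stayed between -0.47 and -0.33 for H275R homozygotes against WT. Correlations between the deviations of embryos of the same number ran from -0.14 to 0.33 over 21 pairs of arrays (median 0.034). Over 63 pairs of unlike number they ran from -0.29 to 0.22 (median -0.0030). Pairs of the same number among H275R homozygotes, H275R heterozygotes and WT were above 0, except H275R homozygote 2 and WT 2 (-0.11). Whether embryos of the same number were related was not tested. With the replicate number as a block, 0 of 9 genes passed in every comparison, with a median of -0.36 for H275R homozygotes against WT. Each gene had 1 probe set, so averaging probe sets changed nothing.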

Other observations

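Platelet precursors share *Gata1*, *Tal1*, *Nfe2*, *Gfi1b* and *Zfpm1* with red cells, and their markers were measured on the same arrays. In CH homozygotes against WT, 7 of 7 measured megakaryocyte genes (of 10 listed) lay below 0, with a median of -0.23 and 0 passing in limma, where 4 had an unadjusted p under 0.05, against 8.95% of all probe sets. Without CH homozygotes 2 and 4 the median was -0.30, again with 7 of 7 below 0 and 0 passing. The platelet glycoprotein gene *Gp9* averaged 9.25 in CH homozygotes and 9.72 in WT, and *Pf4*, a platelet chemokine, 7.43 in CH homozygotes and 7.84 in WT. In H275R homozygotes against WT the same list had a median of 0.04, with 3 of 7 below 0 and 0 passing or with an unadjusted p under 0.05. Mast cell and macrophage markers had medians of 0.21 (8 of 8 above 0) in CH homozygotes and -0.0040 (4 of 8 above 0) in H275R homozygotes against WT, with 0 passing in either. The mean of that list was 7.52 and 7.57 in CH homozygotes 2 and 4, 6.59 and 6.78 in CH homozygotes 1 and 3 and 6.70 to 7.02 in WT, and without embryos 2 and 4 the median was -0.040, with 4 of 8 above 0.

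Among endothelial genes, *Sox18* averaged 8.22 in H275R homozygotes and 7.89 in WT, and *Plvap* 8.72 in H275R homozygotes and 8.46 in WT. Neither passed, and 4 of 10 genes of that list had an unadjusted p under 0.05, against 5.06% of all probe sets. Progenitor markers had a median of 0.07 in both homozygotes against WT, with 0 of 8 passing.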
